A study of Homo sapiens with 8 samples.

Results

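The genes described here are 10 genes of the YAP and TEAD pathway, out of 22392 genes measured in Caco-2 cells that were kept in a gut-on-chip or on Transwell inserts. They comprise the co-activators YAP1 and WWTR1 (the gene of TAZ), the transcription factors TEAD1, TEAD2 and TEAD4, the target genes ANKRD1, CCN1 and CCN2, and the pathway inhibitors AMOTL2 and LATS2. They were chosen by name as parts of this pathway, with earlier results of these data known. Each gene was represented by its brightest probe set on average among those annotated with its symbol alone, and each of the 10 had exactly 1 such probe set. Caco-2 cells are an established line from a human colorectal adenocarcinoma that forms an enterocyte-like monolayer. In the gut-on-chip, 4 samples had been kept under a continuous flow of 100 µL/h of DMEM-based medium, which put a shear of roughly 0.002 dyne/cm2 on the cells. On Transwell inserts, 4 samples had been kept without flow, with the same medium replaced every few days. Both groups were seeded at 75000 cells per cm2, were untreated otherwise, and were harvested at day 21. Device, flow, supply of medium and lysis at harvest differed together, so their effects cannot be told apart. Nothing in the labels says that the 4 samples of a group came from separate experiments, so an FDR value is set against a spread between arrays that may be technical.

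YAP and TAZ are transcriptional co-activators without a DNA-binding domain of their own. In the nucleus they bind transcription factors of the TEAD family and switch on genes for matrix proteins, growth factors and cytoskeletal proteins. The Hippo kinases, of which LATS1 and LATS2 are the last in the cascade, phosphorylate YAP and TAZ and hold them in the cytoplasm, and this control responds to cell density, cell shape, tension and fluid forces. In the intestine, YAP is known for its role in regeneration after injury, shown mainly in mice. YAP and TAZ are regulated chiefly at the protein level, through phosphorylation and location, and neither was measured on these arrays.

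The promoter letters of the members are shown first because TEAD factors recognise a short core, GGAATG, that can be read directly in them. RefSeq sequences on GRCh38.p14, which run from 250 bases before to 50 bases after a transcription start, matched 7 of the 10 members with 10 promoters. CCN1, TEAD1 and TEAD4 were not matched. The 250 bases before the start are printed for ANKRD1 and CCN2, classical targets of YAP that both hold more than 1 TEAD core but differed widely in their change. Capitals mark GGAATG and, in ANKRD1, a match to the AP-1 core TGANTCA. ANKRD1 lies on the minus strand at chr10:90921088-90921337 and CCN2 on the minus strand at chr6:131951373-131951622.
ANKRD1: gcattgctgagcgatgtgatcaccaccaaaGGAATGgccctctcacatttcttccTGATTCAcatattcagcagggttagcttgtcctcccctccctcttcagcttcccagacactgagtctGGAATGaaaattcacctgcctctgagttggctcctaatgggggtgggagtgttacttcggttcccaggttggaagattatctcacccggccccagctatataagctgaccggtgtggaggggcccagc
CCN2: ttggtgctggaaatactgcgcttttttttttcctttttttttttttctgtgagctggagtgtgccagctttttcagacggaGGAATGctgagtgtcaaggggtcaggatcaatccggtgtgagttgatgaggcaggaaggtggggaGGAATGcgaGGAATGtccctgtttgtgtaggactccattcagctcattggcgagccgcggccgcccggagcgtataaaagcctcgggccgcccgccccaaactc

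ANKRD1 held 2 TEAD cores, which begin 220 and 128 bases before the start, with the AP-1 core at 195 bases between them. CCN2 held 3, at 169, 104 and 95 bases before the start. Promoters with 3 or more cores made up 0.128% of all 35116 promoters searched. Windows of 30 bases around the single cores of YAP1 (chr11:102110273-102110302, plus strand), AMOTL2 (chr3:134374499-134374528, minus strand) and LATS2 (chr13:21061560-21061589, minus strand) follow, again with the core in capitals. In AMOTL2 the core lies on the opposite strand and reads CATTCC.
YAP1: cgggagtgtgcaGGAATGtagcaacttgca
AMOTL2: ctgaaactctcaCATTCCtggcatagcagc
LATS2: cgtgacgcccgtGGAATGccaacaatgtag

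Both strands were searched. GGAATG was found in 5 of the 10 member promoters (50%), against 4928 of 35116 promoters in all (14%). Among the promoters of a list of known YAP and TEAD target genes without the members, 8 of 20 (40%) held the core. TGANTCA was found in 1 of 10 member promoters (10%), against 7.71% of all promoters, and it shares no letters with the TEAD cores of ANKRD1. The promoters of WWTR1 and TEAD2 held neither core. A match is a description of the letters in this window and does not show that a factor binds there.

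**Figure D1:**
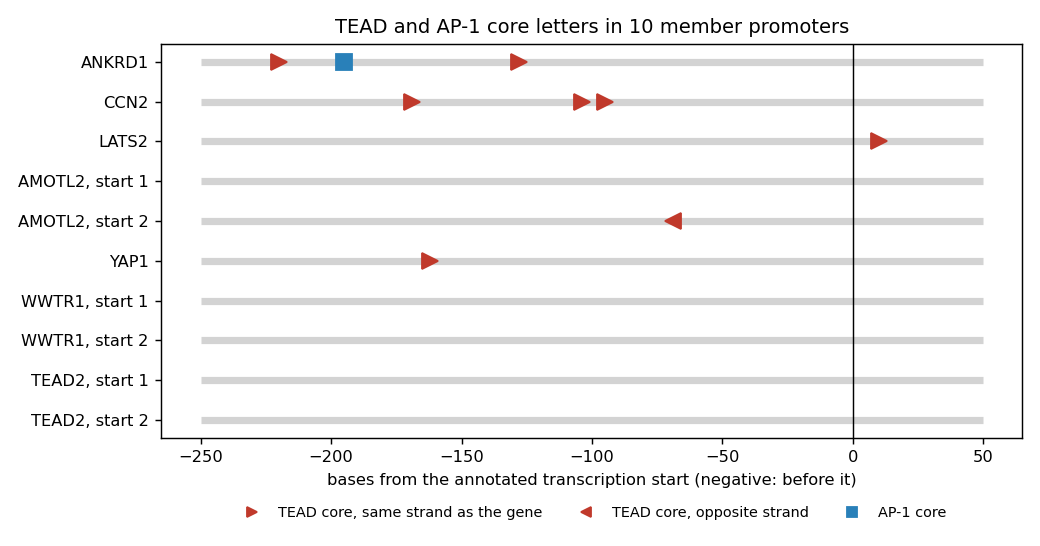
Position of TEAD and AP-1 core letters in the 10 member promoters, in bases from the annotated transcription start (x axis, negative before the start), with 1 row per promoter and a grey bar for the stretch searched. Triangles mark TEAD cores and point right on the strand of the gene and left on the opposite one, and the square marks the AP-1 core. CCN2 holds 3 TEAD cores and ANKRD1 holds 2, while those of YAP1, AMOTL2 and LATS2 are single.

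Of the 10 members, ANKRD1, CCN1 and TEAD1 passed the FDR threshold of 0.01 as upregulated in the gut-on-chip. No member was downregulated, and the other 7 did not pass. Among all genes, 8.72% were upregulated and 7.06% were downregulated at this threshold, and 9.56% of all probe sets passed in either direction. All 4 gut-on-chip arrays lay above all 4 Transwell arrays for 6 of the 10 members, which were TEAD1, TEAD4, ANKRD1, CCN1, AMOTL2 and LATS2. This pattern held for 17.0% of all genes. The median log2FC of the members was 0.41, beside 0.0092 over all genes. At an FDR under 0.05, CCN2, AMOTL2 and LATS2 passed as well, which made 6 of 10 members higher in the gut-on-chip, against 13.6% of all genes. Since the members were chosen with earlier results known, these shares describe the 10 genes and are no test of the pathway.

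Values below are deposited log2 levels, so a difference of 1 is a change by a factor of 2. Array levels of different genes cannot be set against each other, because each probe set binds its target with its own strength. Normalization removes differences in overall signal, so the levels are relative to the other RNA on the same array. A change between the culture systems can reflect RNA amount per cell, the share of cells that express a gene, or a shift in the rest of the RNA. These cannot be told apart in bulk RNA.

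Among the co-activators, neither gene passed the test. YAP1 had levels of 9.13, 9.31, 9.06 and 9.16 in the gut-on-chip, against 9.04, 8.99, 9.03 and 9.11 on Transwell inserts. The groups overlapped, and the log2FC was 0.12 with a 95% interval of -0.03 to 0.27 (FDR = 0.332). This interval holds only small changes of YAP1 mRNA. It rests on a spread between arrays that may be technical, so it may be too narrow. WWTR1 had levels of 5.22, 4.93, 4.73 and 4.57 in the gut-on-chip, against 5.26, 5.49, 4.78 and 5.53 on Transwell inserts. Here the arrays scattered more widely and the groups overlapped, with the third Transwell array among the gut-on-chip values. The log2FC of WWTR1 was -0.40 with an interval of -0.85 to 0.04 (FDR = 0.25).

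Of the TEAD factors, which carry the DNA-binding domain, TEAD1 was upregulated. Its levels were 7.53, 7.52, 7.44 and 7.55 in the gut-on-chip, against 6.90, 6.87, 6.76 and 6.88 on Transwell inserts. The arrays of each system lay close together and far from those of the other, with a log2FC of 0.66 ± 0.07 (SE, n = 4 each, FDR = 0.000194) or 1.58-fold. TEAD4 had levels of 7.10, 7.44, 7.20 and 7.37 in the gut-on-chip, against 7.01, 7.05, 6.86 and 7.04 on Transwell inserts. Although the groups did not overlap, the gap between the nearest arrays was small, and TEAD4 did not pass (log2FC = 0.29 ± 0.10, FDR = 0.0733). TEAD2 had levels of 4.51, 3.96, 4.73 and 4.54 in the gut-on-chip, against 4.28, 4.75, 4.70 and 4.43 on Transwell inserts. These groups overlapped almost fully (log2FC = -0.10, 95% interval -0.54 to 0.33, FDR = 0.819). Without the second gut-on-chip array, the lowest of all 8, the log2FC of TEAD2 was 0.06, so its direction rested on 1 array. TEAD3, the remaining member of the family, had a mean of 7.20 ± 0.13 in the gut-on-chip and 7.08 ± 0.20 on Transwell inserts (SD, n = 4 each, FDR = 0.624).

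The target genes ANKRD1 and CCN1 showed the largest differences of the 10 members. ANKRD1 encodes an ankyrin repeat protein known from stressed heart muscle and is among the most widely used readouts of YAP. Its levels were 9.27, 8.88, 8.93 and 9.11 in the gut-on-chip, against 5.56, 5.70, 5.36 and 5.51 on Transwell inserts. The lowest gut-on-chip array stood more than 3 log2 units above the highest Transwell array. The log2FC was 3.51 ± 0.11, or 11.4-fold (FDR = 1.99e-07). CCN1, once named CYR61, encodes a secreted matricellular protein that binds integrins. Its levels were 7.50, 6.93, 6.78 and 6.67 in the gut-on-chip, against 4.30, 4.72, 4.56 and 4.19 on Transwell inserts. Again there was a wide gap between the groups, and the log2FC was 2.53 ± 0.19, or 5.76-fold (FDR = 1.88e-05).

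CCN2, once named CTGF, is a close relative of CCN1 and another matricellular protein gene commonly read as a YAP target. Its levels were 6.57, 6.48, 6.34 and 6.07 in the gut-on-chip, against 5.58, 5.83, 6.13 and 5.81 on Transwell inserts. The highest Transwell array lay above the lowest gut-on-chip array, so the groups overlapped. Its log2FC of 0.53 ± 0.15 did not pass (FDR = 0.0345, 95% interval 0.20 to 0.85), and ANKRD1 and CCN1 thus differed from CCN2 in call and in size.

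**Figure D2:**
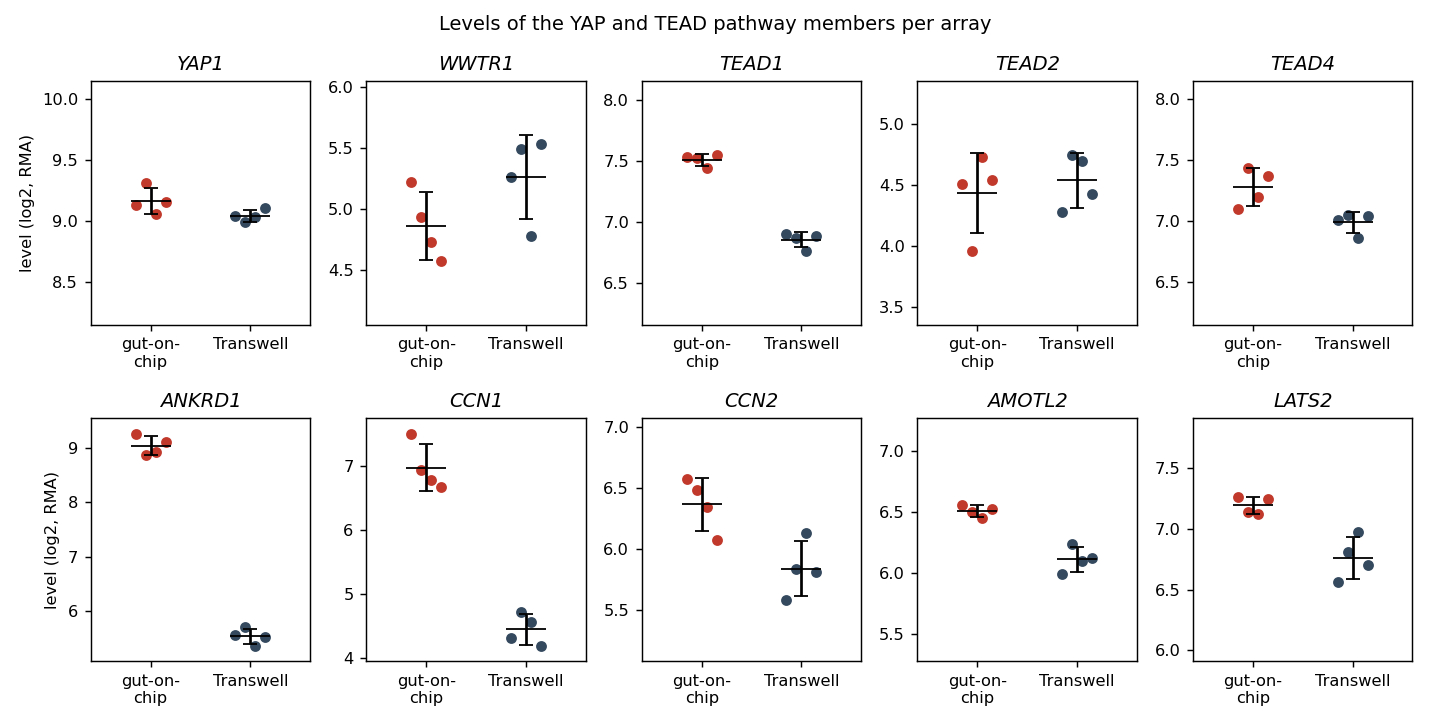
Log2 levels (RMA, y axis) of the 10 members on each of the 4 gut-on-chip arrays (red, left) and the 4 Transwell arrays (blue, right), with the mean and SD as bars, on axes that do not start at 0 and differ in range between panels. ANKRD1 and CCN1 stand far apart between the systems and TEAD1 lies in tight separate groups, while YAP1, WWTR1, TEAD2 and CCN2 overlap.

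AMOTL2 and LATS2 inhibit YAP and are themselves induced by YAP and TEAD, which forms a negative feedback. AMOTL2 encodes an angiomotin-like junction protein that binds YAP. It had levels of 6.56, 6.50, 6.45 and 6.53 in the gut-on-chip, against 5.99, 6.24, 6.10 and 6.12 on Transwell inserts. LATS2, the kinase gene, had levels of 7.26, 7.14, 7.12 and 7.24 in the gut-on-chip, against 6.56, 6.81, 6.97 and 6.70 on Transwell inserts. In both genes every gut-on-chip array lay above every Transwell array. Neither passed: the log2FC was 0.40 ± 0.09 for AMOTL2 (FDR = 0.0118) and 0.43 ± 0.10 for LATS2 (FDR = 0.0138).

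Both genes lay close to the threshold, and their call depended on which probe sets entered the moderation and the adjustment. When both were run over probe sets with 1 symbol only, the FDR was 0.0047 for AMOTL2 and 0.00447 for LATS2. With that setting 5 of 10 members were upregulated, against 11.7% of all genes. Without the third Transwell array, LATS2 had a log2FC of 0.50 and an FDR of 0.00935. ANKRD1, CCN1 and TEAD1 passed under every alternative that kept a threshold on FDR alone. Over these alternatives the log2FC was 3.44 to 3.57 for ANKRD1, 2.35 to 2.62 for CCN1 and 0.62 to 0.68 for TEAD1.

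**Figure D3:**
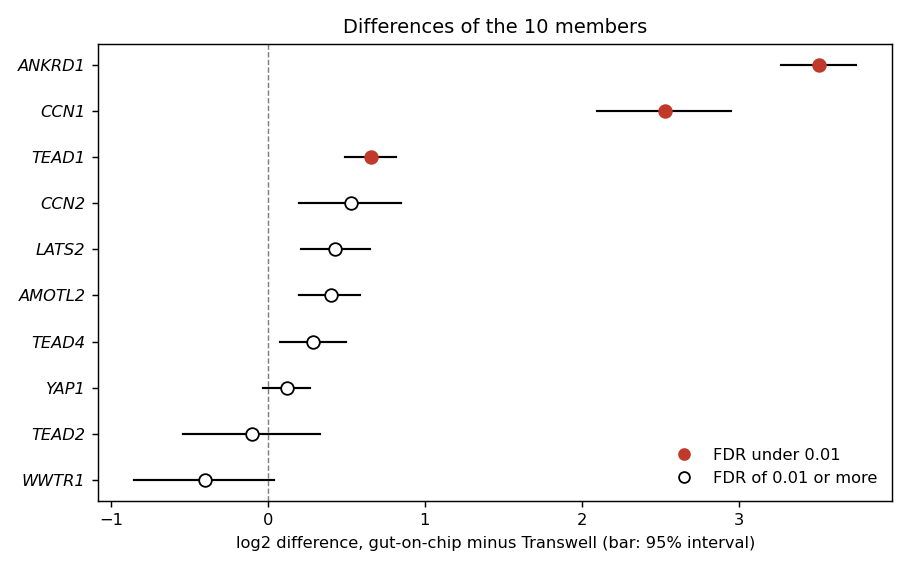
Log2 difference, gut-on-chip minus Transwell (x axis), of each of the 10 members, with 95% intervals as bars and filled points at an FDR under 0.01. ANKRD1 (3.51), CCN1 (2.53) and TEAD1 (0.66) are filled, and the intervals of YAP1, TEAD2 and WWTR1 cross 0.

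Members of the same protein family were then compared with each other, over the 5 pairs that the set holds. These comparisons were added after the values had been seen. For each array the level of one gene was subtracted from that of the other, and the differences were compared between the culture systems with a two-sided exact permutation test, whose smallest possible p is 0.0286 with 4 arrays against 4. Subtraction removes a fixed offset between probe sets, but not a difference in how strongly each responds to its target. The test cannot separate such a difference from one between the genes. As measured, CCN1 changed by 2.00 log2 units more than CCN2. Its level minus that of CCN2 was 0.44 to 0.93 in the gut-on-chip and -1.61 to -1.11 on Transwell inserts (exact permutation p = 0.0286, adjusted over the 5 pairs 0.0477). TEAD1 changed by 0.37 more than TEAD4 and by 0.76 more than TEAD2, each with the same exact permutation p and adjusted p. For TEAD4 against TEAD2 the difference in change was 0.39 (exact permutation p = 0.2, adjusted 0.2). YAP1 and WWTR1 differed in change by 0.52 (exact permutation p = 0.0571, adjusted 0.0714), which does not show that they changed alike.

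For the 3 target genes among the members, the genes whose levels followed theirs most closely over the 8 arrays were looked up among all genes. ANKRD1 was most like GDF15, a stress-induced cytokine gene (Pearson r = 0.998, log2FC = 2.17), TNFRSF21, a death receptor gene (r = 0.998), and the metallothionein gene MT1X (r = 0.9971, log2FC = 3.92). CCN1 was most like TRIB1, a pseudokinase gene (r = 0.9971), DPH2, of diphthamide synthesis (r = 0.997), and PARN, a poly(A) ribonuclease gene (r = 0.9964). CCN2 was most like ZNF833P (r = 0.9818), DENND3 (r = 0.9786) and LYRM9 (r = 0.9753), none of which passed the test. With 8 arrays in separate groups, such correlations of ANKRD1 and CCN1 follow mostly from the difference between the groups and are given as a description.

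The other genes of the pathway were described with 5 lists of genes, which held 65 measured genes besides the members. Of these, 46 did not pass, 18 were upregulated and 1 was downregulated, and the median log2FC was 0.27. The shares of all genes to set beside this and each list below are 8.72% upregulated and 7.06% downregulated. The lists too were chosen with earlier results known. All gut-on-chip arrays lay above all Transwell arrays for 28 of the 65, beside 17.0% of all genes, and below them for 4, beside 13.6% of all genes. When the third Transwell array was left out, 10 were upregulated, and leaving out another Transwell array gave 12 or 13. Another 7 listed genes were not analysed here. Among those that did not pass, FAT4, FOXF2, RBMS3, IL33 and IL1RN were too dim for the filter on low values. That filter asks for a level above the median of 2.473 on at least 4 arrays.

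Among the core kinases and scaffolds of the Hippo pathway, 4 of 12 measured genes were upregulated and none was downregulated, with a median log2FC of 0.27. STK3, which encodes the kinase MST2, averaged 3.89 ± 0.15 in the gut-on-chip and 3.07 ± 0.17 on Transwell inserts (log2FC = 0.82, FDR = 0.00658). WWC1, which encodes the scaffold KIBRA, averaged 6.79 ± 0.07 in the gut-on-chip and 6.14 ± 0.12 on Transwell inserts (log2FC = 0.65, FDR = 0.000901). MAP4K4, a kinase that acts in parallel to MST1 and MST2, had a log2FC of 0.54 (FDR = 0.00226). NF2, which encodes merlin, was the other one called, with a log2FC of 0.42 (FDR = 0.00262). MOB1A, the LATS co-activator gene, had a log2FC of 0.00 (FDR = 0.994), and the kinase gene TAOK1 had one of 0.40 (FDR = 0.0185). LATS1, the sister gene of LATS2, had a log2FC of 0.05 with an interval of -0.14 to 0.24. STK3 lost its call when any array other than the fourth gut-on-chip array was left out (FDR of up to 0.0233), and MAP4K4 when the third Transwell array was (FDR = 0.01). TAOK1 passed without the third gut-on-chip array (log2FC = 0.48, FDR = 0.00434).

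Of 20 measured regulators at junctions, polarity complexes and the cytoskeleton, 4 were upregulated and none was downregulated, with a median log2FC of 0.08. LIMD1, a LIM protein of the Ajuba family that binds LATS kinases, averaged 5.35 ± 0.15 in the gut-on-chip and 4.42 ± 0.07 on Transwell inserts (log2FC = 0.94, FDR = 0.00059). Its relative WTIP averaged 7.90 ± 0.12 in the gut-on-chip and 7.27 ± 0.16 on Transwell inserts (log2FC = 0.63, FDR = 0.00193). Ajuba itself did not pass (AJUBA, log2FC = 0.13 with an interval of -0.06 to 0.32). The atypical cadherin gene FAT1 had a log2FC of 0.79 (FDR = 0.00674), and SLMAP, of the phosphatase complex that opposes MST kinases, had one of 0.44 (FDR = 0.00777). FAT1 passed without the third gut-on-chip array and lost its call without any other single array (FDR of up to 0.0246). STRN3 and STRN4, striatins of the same phosphatase complex, had log2FC values of 0.10 and -0.01. AMOT, the founding angiomotin gene, had a log2FC of -0.30 with an interval of -0.55 to -0.04 and did not pass (FDR = 0.123).

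Vestigial-like proteins bind TEAD factors at the surface that YAP and TAZ use. VGLL1 had levels of 7.53, 7.04, 7.20 and 7.88 in the gut-on-chip, against 5.38, 5.21, 4.89 and 4.58 on Transwell inserts. No array of one system came near the other, and VGLL1 was upregulated 5.26-fold (log2FC = 2.40 ± 0.21, FDR = 5.13e-05). VGLL3 averaged 5.74 ± 0.47 in the gut-on-chip and 4.62 ± 0.13 on Transwell inserts (log2FC = 1.12, FDR = 0.00534). Leaving out the fourth gut-on-chip array or any 1 Transwell array cost VGLL3 its call (FDR of up to 0.0189). VGLL4, a repressor of YAP and TEAD activity, had a log2FC of -0.20 with an interval of -0.43 to 0.03 and did not pass. With the members left out, this group of factors and partners counted 2 upregulated genes of 5 measured.

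Of 23 measured target genes other than the members, 18 did not pass and 5 were upregulated, with no gene downregulated and a median log2FC of 0.48. MYOF encodes myoferlin, a membrane repair protein, and had levels of 9.50, 9.17, 8.98 and 9.24 in the gut-on-chip, against 7.61, 7.57, 7.52 and 7.46 on Transwell inserts. EDN1, the gene of the peptide endothelin 1, had levels of 8.33, 8.13, 7.80 and 8.09 in the gut-on-chip, against 6.36, 6.35, 6.49 and 6.40 on Transwell inserts. The systems were well apart for both genes, with a log2FC of 1.68 for MYOF (FDR = 5.97e-06) and 1.69 for EDN1 (FDR = 7.42e-06). TAGLN, an actin-binding protein gene (log2FC = 1.63, FDR = 0.000123), and THBS1, which encodes thrombospondin 1 (log2FC = 0.87, FDR = 0.000113), were also upregulated. TGFB2, the gene of a transforming growth factor, had levels of 6.63, 5.28, 5.05 and 4.67 in the gut-on-chip, against 3.97, 3.60, 3.16 and 3.49 on Transwell inserts. Its first gut-on-chip array was far above the rest, and without that array the log2FC was 1.45, against 1.85 with all arrays (FDR = 0.00706). TGFB2 passed without that array and without the fourth gut-on-chip array, and did not pass without any other single array (FDR of up to 0.025).

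Other targets did not pass. CRIM1, a transmembrane protein gene, had a log2FC of 0.27 (FDR = 0.17), and the DNA damage response gene GADD45A had one of 0.61 (FDR = 0.0311). Other values were 0.19 for CCND1, which encodes cyclin D1 (FDR = 0.127), and 0.56 for BIRC5, which encodes survivin (FDR = 0.155). The receptor kinase gene AXL had -0.68 (FDR = 0.0564) and ARHGEF17 had -0.34 (FDR = 0.0246). In these 2 targets all gut-on-chip arrays lay below all Transwell arrays, as in 13.6% of all genes. They lay above in 11 of the 23 targets other than the members, beside 17.0% of all genes. Target genes with a TEAD core in the promoters searched were found among those upregulated (4 of 5 with a promoter, members included) and among those that did not pass (8 of 14).

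**Figure D4:**
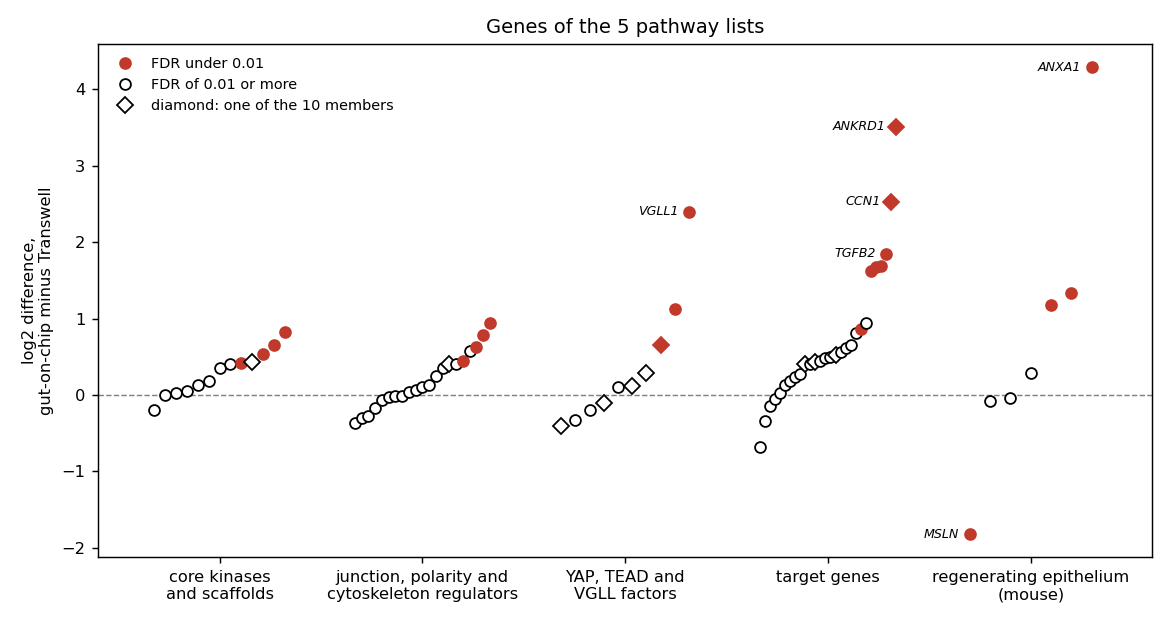
Log2 difference, gut-on-chip minus Transwell (y axis), of every measured gene in the 5 pathway lists (x axis, ordered by value within a list), filled at an FDR under 0.01, with diamonds for the 10 members and a gene of several lists drawn in each. Filled points lie above 0 in every list, except MSLN at -1.82, and ANXA1 (4.29), ANKRD1 (3.51), CCN1 (2.53) and VGLL1 (2.40) stand highest.

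The last list held genes that mark YAP-dependent regenerating intestinal epithelium in mice, so their role in human cells is taken from another species. Of its 7 measured genes, 3 did not pass, 3 were upregulated and 1 was downregulated. ANXA1, which encodes the phospholipid-binding annexin A1, had levels of 7.28, 7.29, 7.77 and 7.54 in the gut-on-chip, against 3.41, 3.16, 3.09 and 3.07 on Transwell inserts (19.6-fold). EREG, the gene of the growth factor epiregulin, had a log2FC of 1.33 (FDR = 0.00287), and CLU, which encodes clusterin, had one of 1.18 (FDR = 0.000358). EREG did not pass without the first or the third Transwell array (FDR = 0.0109 and 0.0114). MSLN, the gene of the surface protein mesothelin, went the other way. It averaged 4.43 ± 0.31 in the gut-on-chip and 6.25 ± 0.10 on Transwell inserts, 3.52-fold lower in the gut-on-chip (FDR = 4.54e-05). ANXA3 had a log2FC of 0.29 (FDR = 0.0242) and did not pass. The other genes that did not pass were IL1RN (log2FC = -0.04, FDR = 0.928) and IL33 (log2FC = -0.08, FDR = 0.853). Both were too dim for the filter on low values, so they say little about a change.

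The label of the cells was checked with markers. Marker lists are given by their mean level per array, which is compared only between the culture systems. The 7 measured epithelial markers had a mean level of 8.3 to 8.6 in the gut-on-chip and 8.3 to 8.5 on Transwell inserts. EPCAM and CDH1 did not pass (log2FC = 0.03 and -0.05), VIL1 and CDX2 were downregulated (log2FC = -1.01 and -0.53), and KRT18 was upregulated (log2FC = 0.98). KRT20 and KRT8 were higher on every gut-on-chip array but did not pass (log2FC = 0.66 and 0.70, FDR = 0.0264 and 0.0799). ANKRD1, CCN1 and CCN2 are also expressed by mesenchymal and endothelial cells, so markers of these were read beside them. Fibroblast markers averaged 3.1 to 3.2 in the gut-on-chip and 3.2 to 3.5 on Transwell inserts, with 1 of 5 downregulated, COL1A1 (log2FC = -0.76, FDR = 0.00877), and none upregulated. Endothelial markers averaged 2.5 to 2.8 in the gut-on-chip and 1.8 to 2.2 on Transwell inserts, and 1 of 3 was upregulated, CDH5 (log2FC = 1.84, FDR = 0.000119). VWF had a log2FC of 0.42 with an interval of 0.06 to 0.79 and KDR one of -0.11 with an interval of -0.48 to 0.26. Both were too dim for the filter on low values (above the median level of 2.473 on at least 4 arrays), and neither passed the test. CDH5 met that filter only through its gut-on-chip arrays, since its Transwell levels were 1.94 to 2.46. Leukocyte markers averaged 5.3 to 5.5 in the gut-on-chip and 5.3 to 5.4 on Transwell inserts, and none of 4 was called. CD68 and LYZ carried that mean, while PTPRC and CD3E were too dim for the filter. The part of these markers in the differences above was not tested.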

How the data were processed

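RNA of 4 gut-on-chip and 4 Transwell samples was hybridised to Affymetrix Human Gene 2.1 ST arrays, 1 per sample. The deposited values are log2 levels from RMA, run by the authors, which corrects background, normalizes quantiles between arrays and thereby removes differences in overall signal. No source used here gives its version. The 53617 probe sets come from another summarisation than the custom one in the methods. The platform annotation gave 23866 of them 1 symbol, 1852 several and 27899 none, of which those with 1 symbol are named. Array medians lay between 2.462 and 2.485, the files hold no detection calls, and the number of arrays limits precision.

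Testing used limma 3.58.1 (R 4.3.3) with an intensity-based moderated statistic (loess span 0.3), without a block. The statistic was checked on simulated independent values, which cannot show whether a block is needed. Two-sided p-values were adjusted over the whole table of 53617 probe sets (Benjamini-Hochberg), and 0.01 was the threshold. Members and lists were chosen with earlier results of these data known, so no test was run over a list. Named were all members, the 3 largest increases and decreases that passed in each list with the brightest 2 that did not, and the 3 genes most like each of ANKRD1, CCN1 and CCN2. NF2, SLMAP, TAGLN, THBS1, LATS1, AJUBA, AMOT, AXL, ARHGEF17, CCND1, BIRC5, FAT4, FOXF2, RBMS3 and IL33 were added after their values were seen. The alternatives were other moderations, normalizations, filters, thresholds, array weights, a replicate block and each array left out.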

Additional observations from a re-analysis of the deposited data

Results flagged for a closer look

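In 4 of 70 sets of 4 arrays, counting both culture systems for each of the 10 members and the 25 other named genes, 1 array stood apart from the other 3, with a gap over range above Dixon's 95% critical value. Chance gives about 5% of such sets, and none of these 4 belonged to a member. GADD45A had a level of 8.99 on the first gut-on-chip array, against 8.19 to 8.31 on the others (gap over range 0.856). STK3 had 3.66 on the fourth gut-on-chip array, against 3.94 to 3.98 on the others (0.883). CLU had 4.50 on the first Transwell array, against 4.39 or 4.4 on the others (0.861), and STRN4 had 7.94 on the third Transwell array, against 8.09 to 8.12 on the others (0.838).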

How the results depend on the processing

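For the members, 169 of 180 values under the alternatives kept their direction and their side of the threshold, 10 passed where the reported value had not, and 1 changed sign. The count of upregulated members, reported as 3, was 5 without dim probe sets, 5 with probe sets of 1 symbol only, 5 with the mean of all probe sets of a gene, and 6 at an FDR under 0.05. It was 2 when an absolute log2FC of at least 1 was also asked for, which TEAD1 did not reach, and 3 to 4 when each array was left out, and no member was downregulated under any alternative run. The first 3 of these settings lower the number of p-values adjusted together and also estimate the moderation from fewer probe sets or genes. Among pathway genes other than members, the 18 upregulated became 10 to 17 when each array was left out, with 10 without the third Transwell array. They became 9 with that limit on log2FC, and the downregulated count became 2 at an FDR under 0.05. Leaving out an array lowers the number of samples. Signs changed only when single arrays were left out, for TEAD2 (-0.20 to 0.06), MOB1A (-0.04 to 0.05), STRN4 (-0.05 to 0.04) and IL1RN (-0.12 to 0.08). Of 449 values for the 25 other named genes, 395 kept direction and call, 34 lost the call, 10 gained it and 10 changed sign. IL1RN gave no value without dim probe sets.

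The replicate numbers are shared between the systems, and the labels do not say whether they pair the samples. Deviations of same-numbered arrays correlated at -0.043 to 0.003 over all probe sets. Many of these probe sets are dim, so the low correlations cannot show that the samples are unpaired. With a replicate block, 3 members and 12 other pathway genes were upregulated. FAT1 and TGFB2 did not pass with limma without a trend (FDR = 0.0162 and 0.012).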
